A study of Mus musculus with 8 samples.

Results

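10 genes of the circadian clock's repressor and output arms were followed in mouse B cell lymphoma cells treated briefly with a BET inhibitor: Bhlhe40, Bhlhe41, Per1, Per2, Cry1, Nr1d1, Nr1d2, Dbp, Tef and Nfil3. They were found by symbol, 1 identifier each, among the 43629 genes counted. Bhlhe41 was chosen because its response to the drug differed between the lines, so its responses are given as a description with no test. The other 9 members share the pathway. 9 of the 10 members, Bhlhe41 included, passed the filter on low counts. Bhlhe40 did not. Per2 passed only through the JQ1 libraries of line 1.1, where it was highest, so it too is described without a test, which left 7 genes to test.

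The groups were cells of Eμ-Myc lymphoma line #1.2 with 250 nM JQ1 or its solvent DMSO, and cells of line #1.1 with 250 nM JQ1 or DMSO, all for 2 h. Both lines come from C57BL/6 mice, and all groups, vehicle groups included, carry the Eμ-Myc transgene, which puts Myc under the immunoglobulin heavy chain enhancer and so drives it in B lineage cells. JQ1 displaces BET proteins from acetylated chromatin. Each group held 2 libraries, 8 in all, and each line is a single established line, so the lines stand for themselves only. Whether the libraries of a group are separate cultures is not stated in the labels, and a p-value here reflects library-to-library spread that may be technical.

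In mammals CLOCK and BMAL1 bind E-boxes in DNA and switch on the Per, Cry, Nr1d and Dbp genes, whose products feed back. PER and CRY proteins inhibit CLOCK and BMAL1, and BHLHE40 and BHLHE41 (also called DEC1 and DEC2) compete at E-boxes. The nuclear receptors NR1D1 and NR1D2 (REV-ERBα and REV-ERBβ) repress genes with ROR elements, Nfil3 and the BMAL1 gene Arntl among them. DBP and TEF activate genes with D-boxes, and NFIL3 represses them. In immune cells NFIL3 is known for its part in natural killer cell development and BHLHE41 for its part in the B-1a cells of the mouse.

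The promoters of the members that hold an E-box, or its variant, are shown because the E-box is the element through which clock activators reach these genes. They are RefSeq sequence of GRCm38.p6, read 5′ to 3′ on the strand of the gene, in lower case with the motif in capitals. Only bases before the start site and outside the annotated exons of the gene are printed. The Per1 and Tef stretches lie inside the annotated spans of these genes. The upstream Tef window also holds an E-box but is not printed, because its bases before the start site are annotated exon. The Bhlhe41 stretch is chr6:145865559-145865670 on the minus strand, and the Per1 stretch is chr11:69098699-69098947 on the plus strand. The Cry1 stretch is chr10:85185065-85185304 on the minus strand, and its capitals mark the variant E-box first and the E-box after it. The Tef stretch is chr15:81811164-81811413 on the plus strand, and the Nr1d1 stretch, with a variant E-box, is chr11:98775378-98775627 on the minus strand.
Bhlhe41: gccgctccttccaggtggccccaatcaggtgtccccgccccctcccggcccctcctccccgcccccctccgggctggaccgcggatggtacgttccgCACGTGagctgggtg
Per1: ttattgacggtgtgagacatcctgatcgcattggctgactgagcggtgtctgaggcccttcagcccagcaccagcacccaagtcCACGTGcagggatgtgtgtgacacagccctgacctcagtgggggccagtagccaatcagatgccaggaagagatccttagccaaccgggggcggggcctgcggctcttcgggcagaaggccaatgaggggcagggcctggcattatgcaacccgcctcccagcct
Cry1: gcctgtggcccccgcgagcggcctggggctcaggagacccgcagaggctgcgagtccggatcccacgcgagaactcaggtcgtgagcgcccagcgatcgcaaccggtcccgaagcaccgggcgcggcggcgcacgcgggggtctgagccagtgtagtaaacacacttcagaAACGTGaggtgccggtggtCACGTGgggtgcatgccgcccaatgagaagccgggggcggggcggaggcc
Tef: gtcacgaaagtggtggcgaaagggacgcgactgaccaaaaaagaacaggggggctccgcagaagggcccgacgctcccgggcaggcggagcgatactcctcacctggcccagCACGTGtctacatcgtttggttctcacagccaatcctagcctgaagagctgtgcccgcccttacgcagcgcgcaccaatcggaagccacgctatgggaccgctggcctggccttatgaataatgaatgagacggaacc
Nr1d1: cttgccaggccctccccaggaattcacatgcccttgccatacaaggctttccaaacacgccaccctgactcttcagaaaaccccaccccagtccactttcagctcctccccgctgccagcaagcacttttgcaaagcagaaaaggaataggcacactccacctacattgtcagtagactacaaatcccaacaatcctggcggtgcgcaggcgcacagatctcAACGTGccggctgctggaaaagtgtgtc

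Windows of 250 bases before to 50 bases after the start site were held for 8 of the 10 members, 10 windows in all, since Per1 and Tef have a pair of starts each. 7 motif forms were searched for on both strands: the E-box CACGTG, the variant E-box CACGTT, the D-box as TTATGTAA and TTACGTAA, the ROR element as TAGGTCA and TGGGTCA, and the cAMP element TGACGTCA. None of these forms contains another. Counted per gene, the E-box was in a window of 4 of the 8 members, against 7.15% of 32851 mouse windows counted singly. It began at -153 in Bhlhe41, at -166 in the upstream Per1 window, at -60 in Cry1, and at -127 and -138 in the Tef windows, counting bases from the start site. The variant E-box, in 4.68% of all windows, lay at -79 in Cry1 and at -28 in Nr1d1, in both on the strand opposite the gene, so it reads AACGTG above. The Nfil3 window held TAGGTCA at -12, in 2.61% of all windows, also on the opposite strand. TGGGTCA (3.98% of windows), TTATGTAA (0.938%), TTACGTAA (0.119%) and TGACGTCA (1.79%) were in none of these members' windows, and the Nr1d2 and Dbp windows held none of the 7 forms. The bases before the start site were 54.8 to 81.6% GC in the members' windows, against a median of 52.4% over all windows. The part of GC content in these shares was not tested. A match describes the letters of these windows and is not a measured binding site.

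**Figure D1:**
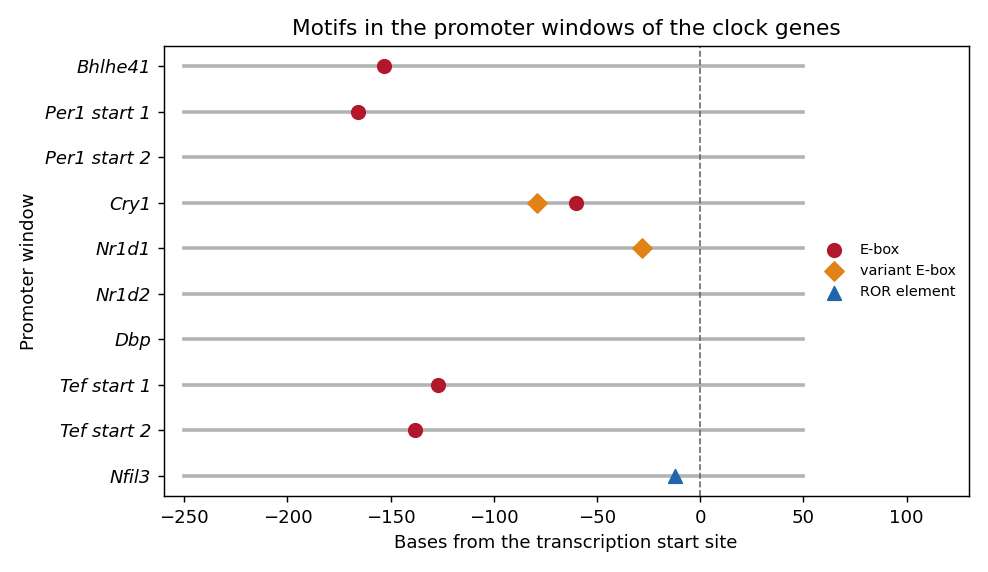
Motifs in the 10 promoter windows of 8 clock genes. Each grey line is a window, from 250 bases before to 50 bases after the start site on the x axis, and symbols mark E-boxes, variant E-boxes and ROR elements, which lie between -166 and -12.

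The files gave 10347453 to 13049877 gene reads per library. Levels are CPM, read counts scaled to a common library size after TMM adjustment. A count of 3 reads is 0.228 to 0.287 CPM, which is the limit for a gene with no read. B cell markers were present in every library, all 8 passing the filter, and their summed level was 1260 to 1430 CPM in JQ1 libraries, against 1970 to 2130 CPM in DMSO libraries. Markers of T cells (Cd3e, Cd3g and Cd4 at 0), natural killer cells (Ncr1 and Gzma at 0) and erythroid cells (Hba-a1 and Hbb-bt at 0) passed in 0 of 5, 0 of 3 and 0 of 5 cases. 1 of 5 myeloid markers passed, at a sum of 0.532 to 1.19 CPM in JQ1 libraries and 0.956 to 1.9 CPM in DMSO libraries, with Lyz2 and Ly6g at 0. 1 of 4 stromal markers passed, Pecam1, which B cells also express, and the sum was 18.8 to 24.2 CPM in JQ1 libraries and 85.9 to 97.5 CPM in DMSO libraries, with Col1a1, Col1a2 and Pdgfrb at 0. Gm42418, which overlaps ribosomal RNA sequence and serves here as a sign of RNA quality, stood at 1300 and 2640 CPM in the line 1.2 JQ1 libraries and at 341 to 977 CPM in the other 6. The part of these markers and of Gm42418 in the members' results was not tested beyond the Gm42418 covariate given with the results by line. In these bulk samples fewer cells of a type and less RNA per cell cannot be told apart.

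The members' levels in DMSO, per kilobase of annotated exon, spanned a wide range. Bhlhe41 was highest at a mean of 29.1 CPM per kb (25.1 to 31 over the 4 DMSO libraries) and its paralogue Bhlhe40 lowest at 0.0421 CPM per kb (0.0176 to 0.061). Between them came Cry1 at 11.8 CPM per kb (11 to 12.9), Nr1d2 at 7.89 CPM per kb (7.67 to 8.16), Nr1d1 at 6.18 CPM per kb (5.81 to 6.57) and Per1 at 5.69 CPM per kb (5.37 to 6.3). Tef had 2.52 CPM per kb (2.28 to 2.71), Dbp 1.18 CPM per kb (0.914 to 1.34), Nfil3 0.413 CPM per kb (0.204 to 0.535) and Per2 0.0885 CPM per kb (0.0771 to 0.114). Of neighbours in this order, Nr1d1 and Per1 had overlapping ranges and the others did not.

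**Figure D2:**
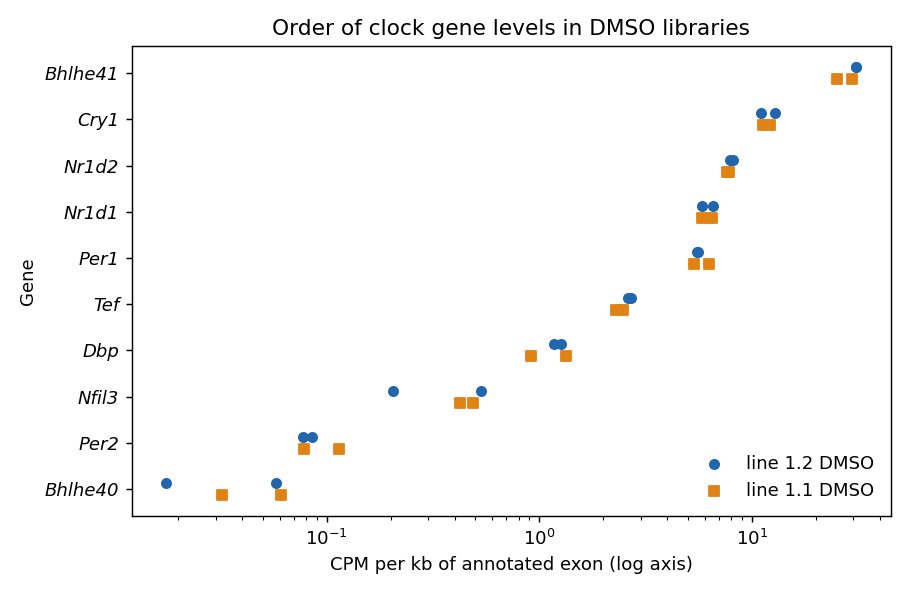
Level of each clock gene in the 4 DMSO libraries, in CPM per kb of annotated exon on a log axis, with line 1.2 as circles and line 1.1 as squares. Bhlhe41 (mean 29.1) stands at the top and Bhlhe40 (mean 0.0421) at the bottom.

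JQ1 changed the 7 tested members at an adjusted p under 0.05 (edgeR's quasi-likelihood test, Benjamini-Hochberg over 12413 genes) when the lines were averaged. Per1, Cry1, Nr1d2, Tef and Nfil3 were higher with JQ1, and Nr1d1 and Dbp were lower. The background is large: 30.7% of all genes tested were called higher and 31.3% lower in the same comparison. The median log2 difference of the 7 members was 0.32, against 0 over all genes tested, and the median size regardless of sign was 0.61, against 0.25. With 7 genes, chosen with earlier results in view, these shares describe the members only.

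**Figure D3:**
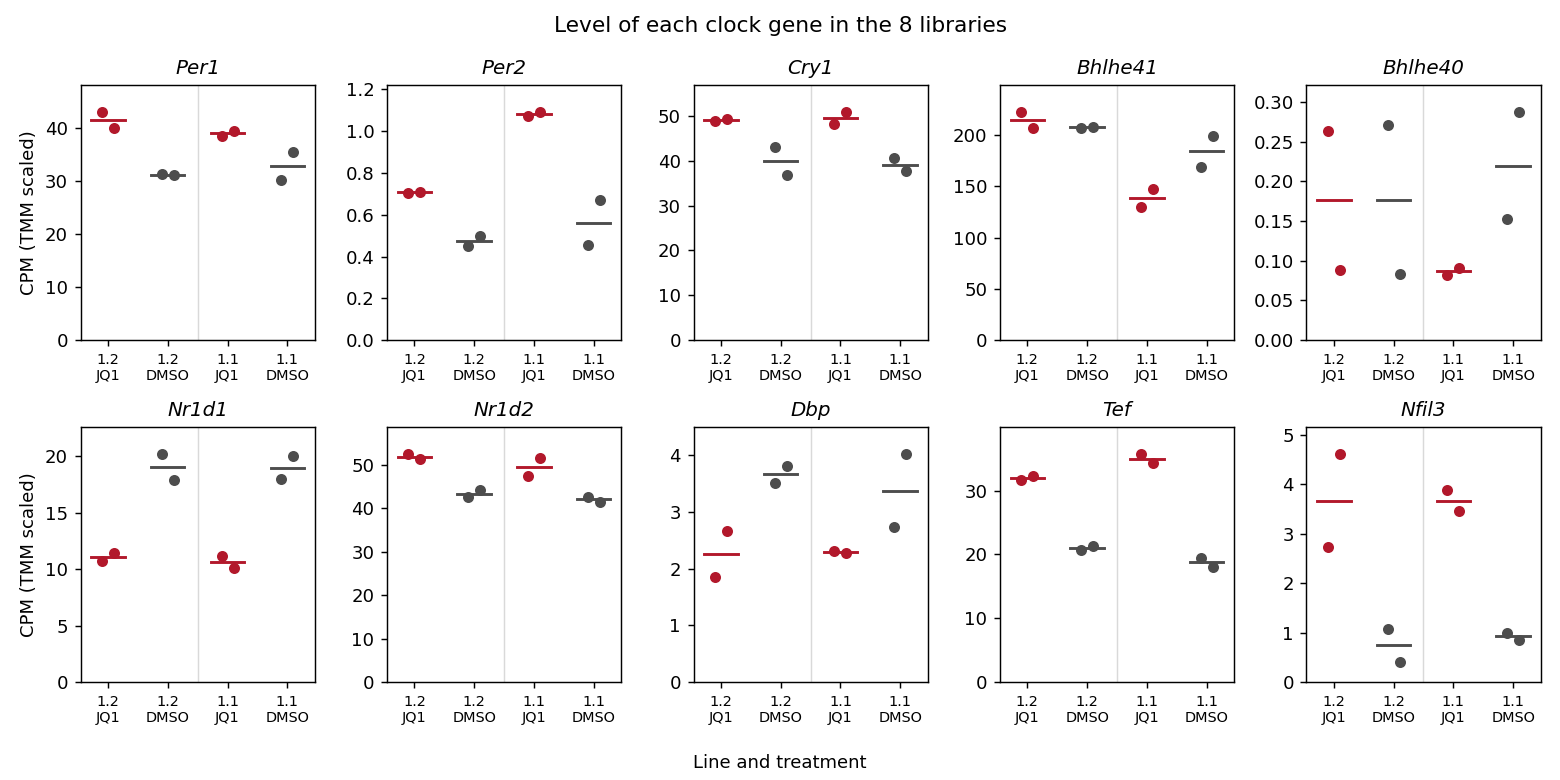
CPM of the 10 clock genes in each library, with the group mean as a bar, for line 1.2 JQ1, line 1.2 DMSO, line 1.1 JQ1 and line 1.1 DMSO from left to right in each panel. Nfil3 and Tef sit higher and Nr1d1 lower in all 4 JQ1 libraries than in any DMSO library, and Bhlhe41 is lowest in the line 1.1 JQ1 libraries.

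Per1 and Cry1, whose proteins form the inhibitory complex of the clock, were both slightly higher with JQ1. Per1 (chr11, 69095217 to 69109960, plus strand) had 43.0 and 40.1 CPM in the JQ1 libraries of line 1.2, against 31.3 and 31.1 CPM in its DMSO libraries. In line 1.1 it had 38.5 and 39.5 CPM with JQ1, against 30.2 and 35.5 CPM with DMSO. All 4 JQ1 libraries exceeded all 4 DMSO libraries, and the line 1.1 DMSO libraries were the most spread. The averaged log2 difference was 0.33 ± 0.058 (SE), a fold of 1.26 (95% interval 1.16 to 1.37; adjusted p = 2.48e-05, edgeR). By line it was 0.41 ± 0.083 in line 1.2 (adjusted p = 0.000206, edgeR) and 0.26 ± 0.082 in line 1.1 (adjusted p = 0.0119, edgeR). The line 1.1 call was lost with DESeq2 (adjusted p = 0.0883), without line 1.1 JQ1 replicate 2 (log2 0.24, adjusted p = 0.069, edgeR) and without line 1.1 DMSO replicate 1 (log2 0.13, adjusted p = 0.248, edgeR).

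Cry1 (chr10, 85131700 to 85185064, minus strand) had 48.8 and 49.4 CPM with JQ1 in line 1.2, against 43.0 and 36.8 CPM with DMSO. The line 1.1 libraries had 48.2 and 50.8 CPM with JQ1, against 40.5 and 37.7 CPM with DMSO. The JQ1 libraries were all above the DMSO libraries and lay within a narrow range. Averaged over the lines, the log2 difference was 0.32 ± 0.055 (SE), a fold of 1.25 (1.15 to 1.35; adjusted p = 2.06e-05, edgeR). The effect was 0.30 ± 0.078 in line 1.2 and 0.34 ± 0.078 in line 1.1, a difference of -0.03 (interval -0.26 to 0.2). Without line 1.2 DMSO replicate 2 the line 1.2 value was 0.19 (adjusted p = 0.103, edgeR).

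Per2, the second Per gene expressed here at a far lower level, was counted at 8 and 8 reads with JQ1 in line 1.2, against 5 and 6 with DMSO. Line 1.1 gave 13 and 12 reads with JQ1, against 6 and 7 with DMSO. Only the line 1.1 JQ1 libraries reached the filter's minimum of 0.871 CPM, so Per2 passed because of the group where it was high, and no test is read from it. The log2 difference was 0.56 in line 1.2 and 0.96 in line 1.1.

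Nr1d1, the more strongly responding REV-ERB gene, was lower with JQ1. Nr1d1 (chr11, 98767932 to 98775333, minus strand) had 10.7 and 11.4 CPM with JQ1 in line 1.2, against 20.2 and 17.9 CPM with DMSO. In line 1.1 it had 11.2 and 10.1 CPM with JQ1, against 18.0 and 20.0 CPM with DMSO. The JQ1 and DMSO ranges were well apart in both lines, and the ranges of the lines overlapped within each treatment. The averaged log2 difference was -0.80 ± 0.083 (SE), which is 1.75-fold lower (1.55 to 1.97; adjusted p = 9.32e-09, edgeR). Line 1.2 gave -0.78 ± 0.12 and line 1.1 gave -0.83 ± 0.12, both past the threshold (adjusted p = 5.88e-06 and 2.62e-06, edgeR), with a difference of 0.04 between them (adjusted p = 0.969).

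Nr1d2, the other REV-ERB gene (chr14, 18204054 to 18239127, minus strand), went the opposite way. It had 52.4 and 51.2 CPM with JQ1 in line 1.2, against 42.6 and 44.1 CPM with DMSO, and 47.3 and 51.6 CPM with JQ1 in line 1.1, against 42.5 and 41.5 CPM with DMSO. Each JQ1 library was above each DMSO library. The averaged log2 difference was 0.24 ± 0.05 (SE; adjusted p = 0.000166, edgeR), a fold of 1.18. It was 0.25 ± 0.07 in line 1.2 and 0.23 ± 0.071 in line 1.1. The line 1.1 call (adjusted p = 0.00816) was lost with DESeq2 (adjusted p = 0.0656) and without line 1.1 JQ1 replicate 2 (log2 0.17, adjusted p = 0.125, edgeR).

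The gene pairs on opposite strands matter for Nr1d1 and Dbp, since the strand setting of the counting is not given. Thra, the thyroid hormone receptor gene on the other strand of Nr1d1, shares 263 of its 3077 exon bases (8.55%). Thra had 3.26 and 3.9 CPM with JQ1 in line 1.2, against 4.78 and 5.13 CPM with DMSO, and 2.97 and 2.74 CPM with JQ1 in line 1.1, against 4.25 and 4.78 CPM with DMSO. It too was lower, by a log2 difference of -0.56 ± 0.15 (adjusted p = 0.00247, edgeR). Sphk2 shares 539 of the 2993 exon bases of Dbp (18%) and was higher by 0.20 ± 0.051 (adjusted p = 0.00183, edgeR), at 35.7 to 46.3 CPM. How reads from the shared bases were counted is therefore not known, and their part in these differences was not tested.

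The activators among the output genes moved in opposite ways. Tef (chr15, 81802421 to 81826863, plus strand), which activates D-box genes, had 31.7 and 32.3 CPM with JQ1 in line 1.2, against 20.7 and 21.3 CPM with DMSO. The levels in line 1.1 were 35.7 and 34.3 CPM with JQ1, against 19.5 and 18.0 CPM with DMSO. No JQ1 library came near a DMSO library. With the lines averaged, Tef differed by 0.75 on the log2 scale, with an SE of 0.061, a fold of 1.68 (1.54 to 1.84; adjusted p = 1.26e-10, edgeR). The effect was 0.61 ± 0.086 in line 1.2 and 0.90 ± 0.086 in line 1.1. The difference of -0.29 ± 0.12 had an unadjusted p of 0.028 and an adjusted p of 0.582 (edgeR), so it did not pass.

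Dbp (chr7, 45705088 to 45710203, plus strand), also a D-box activator, was much less abundant and was lower with JQ1. It had 21 and 30 reads (1.85 and 2.66 CPM) with JQ1 in line 1.2, against 39 and 46 reads (3.52 and 3.81 CPM) with DMSO. In line 1.1 it had 28 and 25 reads (2.31 and 2.28 CPM) with JQ1, against 36 and 42 reads (2.73 and 4.02 CPM) with DMSO. The JQ1 range ended just below the DMSO range, at 2.66 against 2.73 CPM. The averaged log2 difference was -0.61 ± 0.19 (SE), a ratio of 0.653 (adjusted p = 0.00705, edgeR), and DESeq2 gave -0.62 with an adjusted p of 0.0572. Line 1.2 gave -0.70 ± 0.27 (adjusted p = 0.0321, edgeR) and line 1.1 gave -0.53 ± 0.27 (adjusted p = 0.107, edgeR). In line 1.2 the call was lost when line 1.2 JQ1 replicate 1 was left out (-0.46, adjusted p = 0.257), with DESeq2 (0.173), without line 1.2 DMSO replicate 1 (adjusted p = 0.0704) and without line 1.2 DMSO replicate 2 (adjusted p = 0.149). The line 1.1 difference passed without line 1.1 DMSO replicate 1 (-0.81, adjusted p = 0.0328, edgeR) and was -0.25 without line 1.1 DMSO replicate 2 (adjusted p = 0.555). With the Gm42418 covariate the difference was -1.04 averaged over the lines (adjusted p = 0.00198) and -1.67 in line 1.2 (adjusted p = 0.0198, edgeR).

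Nfil3, the D-box repressor, showed the largest difference of the members tested. Nfil3 (chr13, 52967209 to 52981073, minus strand) had 31 and 52 reads (2.73 and 4.61 CPM) with JQ1 in line 1.2, against 12 and 5 reads (1.08 and 0.414 CPM) with DMSO. Counts in line 1.1 were 47 and 38 reads (3.88 and 3.46 CPM) with JQ1, against 13 and 9 reads (0.987 and 0.861 CPM) with DMSO. All 4 JQ1 libraries lay above every DMSO library. The averaged log2 difference was 2.14 ± 0.26 (SE), 4.4-fold higher (3.04 to 6.36; adjusted p = 1.15e-07, edgeR), and only 1.74% of all genes tested differed by more in either direction. It was 4.93-fold higher in line 1.2 (log2 2.30 ± 0.37) and 3.92-fold higher in line 1.1 (1.97 ± 0.35). The line 1.2 value was 3.11 on the log2 scale without line 1.2 DMSO replicate 1, the library with 12 reads. Among the other members, 13.7% of genes exceeded Nr1d1 in size, 15.3% exceeded Tef, 20% exceeded Dbp, 40.1% exceeded Per1, 41.6% exceeded Cry1 and 51.3% exceeded Nr1d2.

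Within line 1.2 the comparison called 5 of the 7 members higher and 2 lower, against 24.4% and 25% of all genes. Within line 1.1 it called 5 of the 7 higher and 1 lower, against 24.9% and 26.1% of all genes. The high Gm42418 level of the line 1.2 JQ1 libraries moves with the line 1.2 effect. With log2 Gm42418 as a covariate, 3 of the 7 line 1.2 calls passed, and Per1 (log2 0.26, adjusted p = 0.28), Cry1 (0.36, 0.104), Nr1d2 (0.32, 0.12) and Nfil3 (1.25, 0.268) did not. All 7 averaged calls passed with that covariate too.

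**Figure D4:**
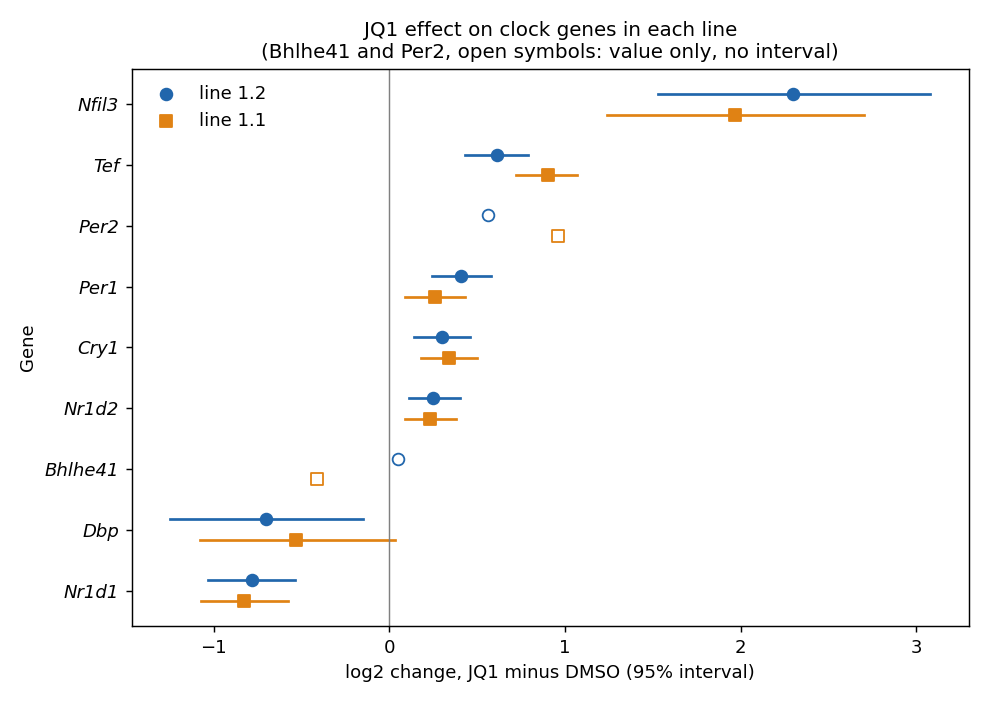
Log2 change with JQ1 against DMSO for 9 clock genes in line 1.2 (circles) and line 1.1 (squares), with 95% intervals. Nfil3 lies farthest to the right, Nr1d1 and Dbp lie left of 0, and Bhlhe41 and Per2, which were not tested, are drawn open and without an interval.

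No difference between the lines passed for the tested members. Line 1.2 against line 1.1 in DMSO gave 0 of 7 members past the threshold by edgeR, where 6.77% of all genes passed, and in JQ1 it gave 0 of 7, where 6.4% of all genes passed. The unadjusted p was under 0.05 for 0 of 7 members in both comparisons, against 2512 (DMSO) and 2603 (JQ1) of all 12413 genes tested. The difference between the drug effects of the lines passed for 0 of 7 members by edgeR, where 0.113% of all genes passed. Its unadjusted p was under 0.05 for 1 of 7, Tef, and for 1000 of all 12413 genes tested (edgeR). limma-voom called 0 of 7 in each of these comparisons. DESeq2 called 0 of 7 in both comparisons of the lines, and gave no adjusted p to any member for the difference between drug effects.

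Bhlhe41, the E-box repressor (chr6, 145858243 to 145865558, minus strand), carries the value for which it was chosen. In line 1.2 it had 222 and 207 CPM with JQ1, against 207 and 208 CPM with DMSO, and these ranges overlapped. In line 1.1 it had 130 and 147 CPM with JQ1, against 169 and 199 CPM with DMSO, and the JQ1 libraries were both lower. The log2 difference was 0.05 in line 1.2 and -0.41 in line 1.1, a gap of 0.46. Since Bhlhe41 was chosen on this gap, it is not weighed against the spread between replicates. The gap ranged from 0.25, with the Gm42418 covariate, to 0.58 over 18 alternatives. The line 1.1 difference ranged from -0.53, without line 1.1 DMSO replicate 1, to -0.29, without line 1.1 DMSO replicate 2. The line 1.2 difference turned to -0.13 with the Gm42418 covariate. Line 1.2 exceeded line 1.1 by 0.64 in JQ1 and by 0.18 in DMSO. In DMSO the excess was 0.06 without line 1.1 DMSO replicate 1 and 0.30 without line 1.1 DMSO replicate 2. Gm43909 on the opposite strand shares 1280 of the 6720 exon bases of Bhlhe41 (19%). It is not among the genes counted, so it has no read count here.

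Bhlhe40, its paralogue (chr6, 108660629 to 108666925, plus strand), had 3 and 1 reads with JQ1 in line 1.2, against 3 and 1 with DMSO. Line 1.1 had 1 and 1 reads with JQ1, against 2 and 3 with DMSO. All 8 libraries were at or under 3 reads, so no fold is given.

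The nearest tested genes on each side of the members were read as well. Since 30.7% of all genes tested were higher and 31.3% lower with JQ1, a shared or opposite direction describes these neighbours only. Both neighbours of Nr1d1 were lower like Nr1d1, Med24 at 38.5 kb by a log2 difference of -0.24 (adjusted p = 9.52e-06, edgeR) and Msl1 at 20.2 kb by -0.28 (adjusted p = 1.42e-07, edgeR). Both neighbours of Nfil3 were higher like Nfil3, Auh at 37.5 kb by 0.33 (adjusted p = 2.19e-05, edgeR) and Sptlc1 at 352 kb by 0.29 (adjusted p = 0.000178, edgeR). Sspn (sarcospan), 66.1 kb from Bhlhe41, was higher with JQ1 by 0.75 (adjusted p = 1.58e-06, edgeR), at 0.71 in line 1.2 and 0.79 in line 1.1. Rps25-ps1, 591 kb from Bhlhe41, had 0.09 (adjusted p = 0.0397, edgeR). In DMSO its level in line 1.2 exceeded that in line 1.1 by 0.19 (adjusted p = 0.0238, edgeR). Beside Per2, Hes6 had 0.1 and Traf3ip1 0.03 (adjusted p = 0.0295 and 0.735, edgeR). Beside Bhlhe40, Gm16433 had -0.18 and Arl8b 0.06 (adjusted p = 0.0246 and 0.182, edgeR). Beside Tef, Tob2 at 21.4 kb was higher by 0.48 (adjusted p = 2.86e-10, edgeR) and Zc3h7b at 6.16 kb was lower by a log2 difference of -0.48 (adjusted p = 3.32e-10, edgeR). Mterf2, 3.67 kb from Cry1, had -0.77 (adjusted p = 5.29e-06, edgeR), opposite to Cry1. Top2b, 1770 kb from Nr1d2, had -0.22 (adjusted p = 1.58e-06, edgeR), opposite to Nr1d2, and Bcat2, 115 kb from Dbp, had -0.16 (adjusted p = 0.0298, edgeR), as Dbp did. Vamp2 and Cntrob beside Per1 (0.09 and -0.13, adjusted p = 0.213 and 0.219), Gm8394 beside Cry1 (-0.02, adjusted p = 0.886), Rpl15 beside Nr1d2 (0.04, adjusted p = 0.402) and Rpl18 beside Dbp (0.05, adjusted p = 0.402) did not pass in edgeR.

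The genes whose level over the 8 libraries most resembled Bhlhe41 were Tubgcp2 (Pearson r = 0.973), Zfp46 (0.964), Ap3b1 (0.961), Lancl1 (0.96) and Kdm3a (0.96), out of 8447 genes averaging 5 CPM or more. For Nfil3 they were Kif13b and Add3 (0.988 each), Rpn2 (0.986), Lsm12 (0.985) and Gdap2 (0.985), out of 8448. The values share their libraries and depth, and are given as a description.

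33 other genes of the clock and its inputs were examined, of which 26 passed the filter. The list includes 9 genes of the cAMP and glucocorticoid pathways. With the lines averaged, 9 of the 26 were higher (34.6%), 8 lower (30.8%) and 9 not past the threshold, with a median log2 difference of 0.03, against 30.7% higher, 31.3% lower and a median of 0 for all genes tested. These shares are near the background. Among those that did not pass the filter were Npas2, Arntl2, Rora, Rorb, Hlf and Fbxl21. Rora and Rorb encode activators at the elements that REV-ERBs repress, and Hlf is the third PAR bZIP gene beside Dbp and Tef.

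The activators Clock (log2 -0.12 ± 0.05, adjusted p = 0.0449) and Arntl (-0.36 ± 0.067, adjusted p = 6.04e-05) were both lower with JQ1 in edgeR. By line, Clock passed in neither (adjusted p = 0.27 in line 1.2 and 0.106 in line 1.1, edgeR). Arntl passed in both (adjusted p = 0.00315 and 0.0028, edgeR). Of the remaining repressors, Cry2 was higher: it had 16.2 and 15.2 CPM with JQ1 in line 1.2, against 9.84 and 8.94 CPM with DMSO, and 14.7 and 16.1 CPM with JQ1 in line 1.1, against 7.14 and 8.7 CPM with DMSO. Its averaged log2 difference was 0.86 ± 0.092 (adjusted p = 1.82e-08, edgeR), and all 4 JQ1 libraries lay above every DMSO library. Per3, named after its values were seen, averaged 1.53 CPM and was higher by 1.28 ± 0.25 (adjusted p = 0.000102, edgeR). Ciart had 0.37 ± 0.2 (adjusted p = 0.1, edgeR).

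Among 10 tested kinases, ligases and partners of the PER and CRY proteins, 2 were higher, 5 lower and 3 did not pass. These are 20% higher and 50% lower, against 30.7% and 31.3% of all genes tested, and describe these 10 genes only. Btrc, a ubiquitin ligase subunit that targets PER proteins, had 33.7 and 33.5 CPM with JQ1 in line 1.2, against 74.1 and 72.6 CPM with DMSO, and 32.7 and 38.5 CPM with JQ1 in line 1.1, against 71.9 and 75.2 CPM with DMSO. Its log2 difference was -1.09 ± 0.052 (adjusted p = 5.85e-15, edgeR), while its relative Fbxw11 had 0 (adjusted p = 0.956). Gsk3b, a kinase of several clock proteins, was higher by 0.67 ± 0.043 (adjusted p = 1.48e-12, edgeR), and Gsk3a had 0.03 (adjusted p = 0.583). Csnk1d was higher by 0.10 (adjusted p = 0.014) and Csnk1e lower at -0.13 (adjusted p = 0.0158), both casein kinases of PER. Timeless (-0.22), and the RNA-binding partners Nono (-0.12) and Sfpq (-0.09), were also lower (adjusted p = 7.63e-05, 0.00186 and 0.0205, edgeR).

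The next list held 9 genes of the cAMP and glucocorticoid pathways, which act on Per1, and included targets of the glucocorticoid receptor. Of these 9, 4 were higher (44.4%), 1 lower (11.1%) and 4 did not pass, against 30.7% higher and 31.3% lower among all genes tested. Fkbp5, a glucocorticoid receptor target, was higher by 0.71 ± 0.036 (adjusted p = 2.84e-14, edgeR), with 151 and 150 CPM with JQ1 in line 1.2, against 91.7 and 88.2 CPM with DMSO, and 144 and 147 CPM with JQ1 in line 1.1, against 92.7 and 90.5 CPM with DMSO. Tsc22d3, another such target, had -0.14 (adjusted p = 0.262), and the receptor gene Nr3c1 had 0.04 (adjusted p = 0.548). The kinase gene Sik1 (0.48 ± 0.05, adjusted p = 1.35e-08), Creb1 (0.34 ± 0.036, adjusted p = 1.27e-08) and Crem (0.43 ± 0.13, adjusted p = 0.00509) were higher, and the CREB coactivator gene Crtc3 (-0.33 ± 0.063, adjusted p = 5.96e-05) was lower, in edgeR. Of the clock-controlled genes, Nampt, the NAD salvage enzyme, was higher by 0.24 ± 0.037 (adjusted p = 6.25e-06, edgeR) and the deubiquitinase gene Usp2 had 0.23 (adjusted p = 0.215).

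**Figure D5:**
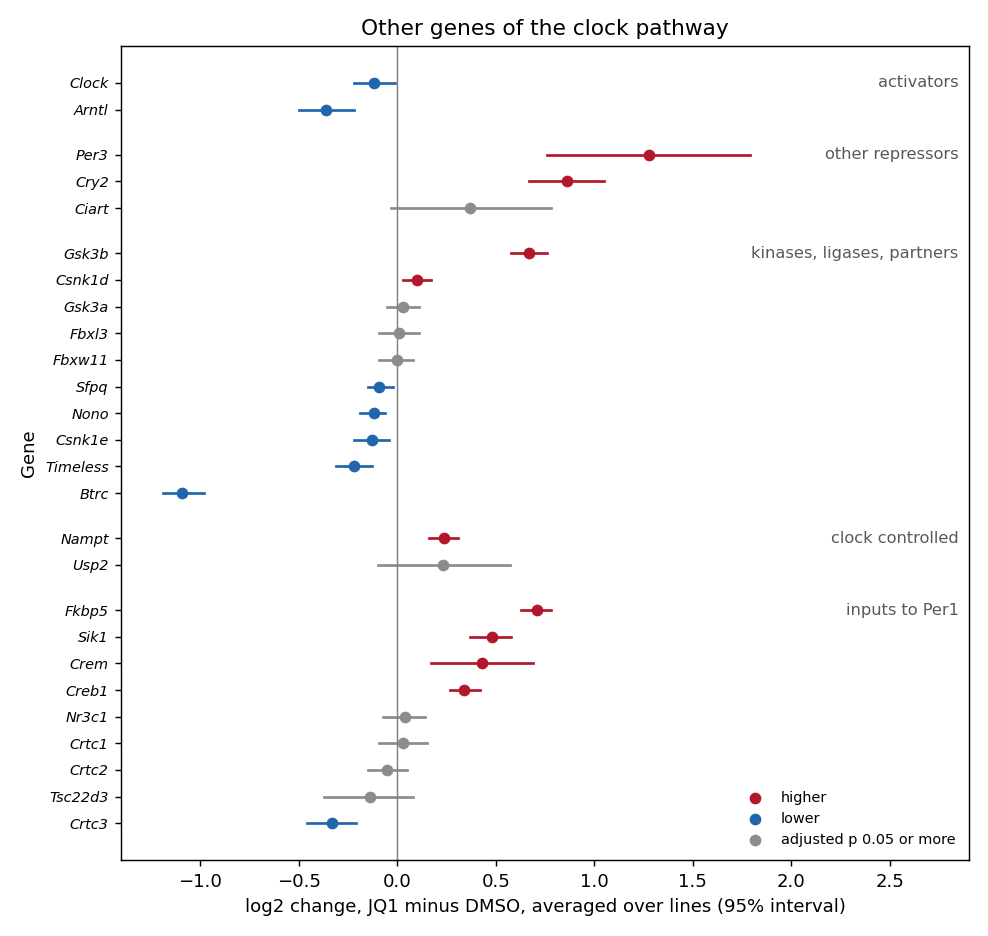
Averaged log2 change with JQ1 against DMSO, with 95% intervals, for the 26 other genes of the clock and its inputs tested, grouped by role. Btrc (-1.09) is farthest left, Per3 (1.28) and Cry2 (0.86) farthest right, and red and blue mark an adjusted p under 0.05.

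Over the 26 genes the difference of the drug effects between lines passed for 0 by edgeR, where 0.113% of all genes passed. The unadjusted p was under 0.05 for 2 of the 26, and for 1000 of all 12413 genes tested (edgeR). Line 1.2 against line 1.1 gave 2 lower in DMSO (7.69%) and 1 lower in JQ1 (3.85%), against 3.17% and 2.92% of all genes tested.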

How the data were processed

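Per the labels' protocols, total RNA was made into libraries with a TruSeq RNA kit. The deposited values are whole-number read counts per Ensembl gene, made by the authors with FastQC, cutadapt 1.7, TopHat, Bowtie2 and HTSeq on GRCm38 (mm10), per the submitters' processing notes. Neither strand setting nor annotation release is given in the sources used here. HTSeq lines that name no gene (no feature 12.3 to 14.4%, ambiguous 1.54 to 1.67%) entered neither library sizes nor tests. 42462 of 43629 identifiers matched a symbol. Gene spans and exon lengths come from GENCODE M21 (GRCm38).

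In R 4.3.3, edgeR 4.0.16 kept 12413 genes (filterByExpr, minimum count 10, minimum total 15) and fitted 4 group means to all 8 libraries with TMM, which left 4 residual degrees of freedom. Tests were two-sided, Benjamini-Hochberg adjusted over all genes, with a threshold of 0.05. Standard errors are the log2 difference divided by the square root of F. limma 3.58.1 (voom) and DESeq2 1.42.0 were among 19 alternative settings. Members and lists were chosen with earlier results of these data known. Text names all members, genes of the wider list averaging 5 CPM or more, and genes overlapping Nr1d1, Dbp and Bhlhe41. It also names nearest genes and the 5 genes most like Bhlhe41 and Nfil3. Per3, Ciart and Usp2 are named too, though they averaged 1.53, 2.83 and 3.42 CPM, as are genes that did not pass the filter. Replicates of each group differed by more than sampling noise. Same-numbered libraries did not deviate together (correlations -0.04 to 0.07), so numbers were not taken as pairs. Intervals cover the spread between these libraries, and the 3-read limit covers counting error only.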

Additional observations from a re-analysis of the deposited data

How the results depend on the processing

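Of 868 member values with an adjusted p under 19 alternatives, Per2 included, 849 kept the side of the threshold they had, 17 lost a call and 2 gained one; 33 differed in sign where neither fit called them. The difference of drug effects and the line comparisons in DMSO and JQ1 gave 133, 148 and 149 of the 868 values. No setting called a member there, so no call could be lost. The calls lost were all of JQ1 effects, most of them in line 1.2. The averaged calls of Per1, Cry1, Nr1d1, Nr1d2, Tef and Nfil3 passed wherever these genes were tested. With the Gm42418 covariate 3 members instead of 7 were called in line 1.2, and 2908 of all genes tested instead of 6136. A filter of at least 5 CPM left Dbp, Nfil3 and Per2 untested. With the replicate block, 7 members were called with the lines averaged, 7 in line 1.2, 6 in line 1.1 and 0 in the line comparisons, and no member call changed. The wider list had 13 to 17 genes called, against 17. Averaged calls over all genes ranged from 6188, with the Gm42418 covariate, to 7990, without a filter, against 7692. Leaving out a library leaves 1 in its group, which is then assumed to vary like the other groups.

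Over all genes, the difference of drug effects was called for 14 genes, against 6 with DESeq2, 80 without a filter, 8 at 5 CPM or more, 63 with the replicate block, 8 with the Gm42418 covariate, 7 at a threshold of 0.01, and 8 to 459 leaving out 1 library. Line 1.2 against 1.1 in DMSO had 840, against 303 with DESeq2, 445 from its 4 libraries alone, 376 at 0.01, and 313 to 1318 leaving out 1 library. In JQ1 it had 795, against 328 with DESeq2, 1635 from its 4 libraries alone, 343 with the covariate, 370 at 0.01, and 281 to 1538 leaving out 1 library. JQ1 in line 1.2 had 6136, against 2908 with the covariate. The causes were not tested. Depth limits Per2, Dbp, Nfil3 and Bhlhe40, which had 15 to 267 reads in all libraries together.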
